A study of Caenorhabditis elegans with 4 samples.

Results

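The transcriptomes of 4 mixed-stage *Caenorhabditis elegans* populations were compared by replicate number, the libraries numbered 2 against those numbered 1. All 4 libraries of the series entered, 1 of each number per treatment, and 15065 of the 15408 genes in the deposited table were tested. Every population was of the wild-type strain N2, held animals of all stages and was grown on the bacterium OP50 at 20°C. The cisplatin populations were exposed to 60 µg/ml of the DNA-crosslinking drug for 24 h, and the control populations received none. Cisplatin replicate 2 was compared with cisplatin replicate 1 and control replicate 2 with control replicate 1, and the average of these differences is the value of a gene, so that treatment was a covariate. Where a pair of values is given per treatment, the first is replicate 1 and the second is replicate 2. The study calls the replicates biological, and the sources used here do not say what the number stands for, such as a culture, a plate or a day. The p-values set a gene's average difference against the disagreement between the 2 treatments, pooled largely over genes of like level. A small p-value therefore does not show that the differences within the 2 treatments were alike for that gene. In RNA from whole populations, fewer animals or cells of a type and less RNA per animal or cell cannot be told apart.

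*C. elegans* hatches as a small larva and passes through a series of moults before adulthood. At each moult the epidermis builds a new cuticle of collagens, and waves of moulting genes are switched on and off with each cycle. The hermaphrodite gonad makes sperm first and then switches to oocytes, the adult intestine supplies the oocytes with yolk, and the adult cuticle has collagens of its own. In a population that holds all stages at once, such genes therefore follow the share of each stage as well as the state of each animal.

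Libraries numbered 2 had higher values for most genes. The difference was taken on the log2(FPKM + 0.5) scale, where FPKM stands for the fragments of a transcript divided by its exon length and by the depth of its library, and positive values are higher in replicate 2. The median gene differed by 0.28 with cisplatin and by 0.64 in the control, 0.47 on average, and 9725 genes (64.6%) were higher in replicate 2 in both treatments against 2838 (18.8%) lower in both. With limma's moderated test and Benjamini-Hochberg adjustment, 4337 genes (28.8% of those tested) rose and 740 (4.91%) fell in replicate 2 at an adjusted p under 0.05. A difference of at least 1 in both treatments was found for 2058 genes (13.7%) that were higher and 36 (0.239%) that were lower. Replicate number took 68.9% of the sum of squares over all genes, treatment took 16.9%, and 14.2% remained. With each part centred on its median over genes, these shares were 61.7%, 21.7% and 16.6%.

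The count of genes past the test depended on single libraries and on the scaling. It was 0 higher and 0 lower without control replicate 1 (3910 and 617 at an unadjusted p under 0.05), 13 and 5 without control replicate 2, 29 and 3 without cisplatin replicate 2, and 2367 and 126 without cisplatin replicate 1, in fits without the treatment term. With the libraries brought to the same median, 1955 genes passed as higher and 2096 as lower, and with quantile normalization 697 and 419. Higher genes made up 85.4% of the calls as deposited, 48.3% at equal medians and 62.5% after quantile normalization. Lists are therefore described by their median, also relative to the 0.47 of all genes, and a list whose direction turned under either scaling is named as such.

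The difference also moved with how abundant and how long a transcript was. In 5 equal groups of genes from the least to the most abundant the median difference was 0.95, 0.94, 0.59, 0.18 and -0.13, and in 5 groups from the shortest to the longest exon length it was 0.31, 0.41, 0.48, 0.51 and 0.61. Between 79.8% and 84.4% of the genes tested reached 1 FPKM in the libraries numbered 1, against 94.4% and 95.6% in those numbered 2. The median FPKM was 9.25 and 12.29 in cisplatin replicates 1 and 2 and 6.64 and 12.73 in control replicates 1 and 2. Each list is hence also given relative to genes of like exon length and level, as the median over its members of the difference from the median of their bin, in 25 bins of all genes.

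**Figure D1:**
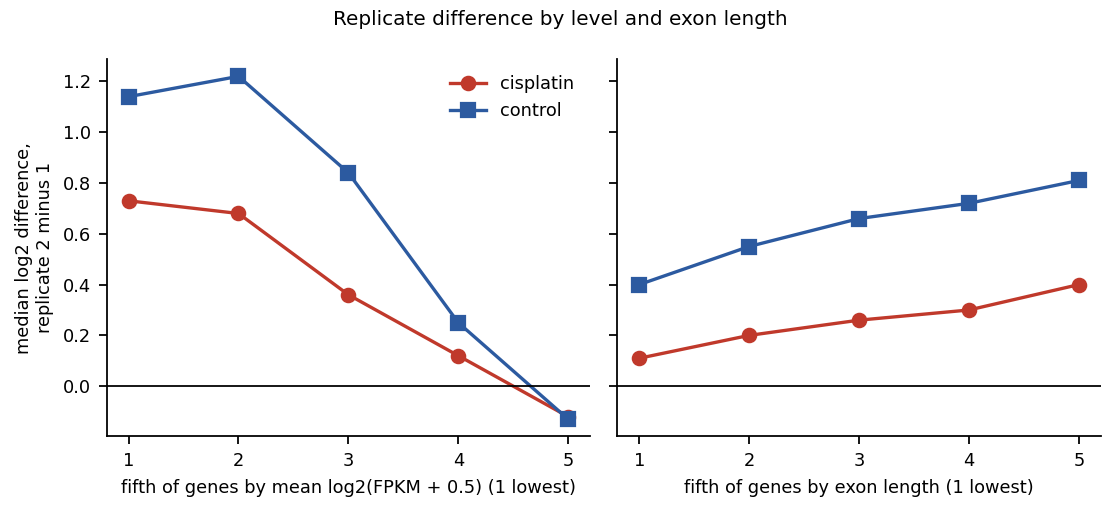
Median log2 difference between replicates 2 and 1 in 5 equal groups of the genes tested, by mean log2(FPKM + 0.5) on the left and by exon length on the right. Points are medians over genes, red circles within cisplatin and blue squares within the control. Medians fell from 0.73 and 1.14 in the least abundant group to -0.12 and -0.13 in the most abundant one, and went from 0.11 and 0.40 in the group of shortest genes to 0.40 and 0.81 in the longest.

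The stage and tissue lists spread widely around the 0.47 of all genes. Collagens with a mutant phenotype, pharyngeal genes, genes of the pharyngeal cuticle, epidermal antimicrobial peptides, seam genes and moulting genes had the highest medians, from 1.24 to 1.78, apart from 3 dauer-associated cuticle genes at 3.26. Genes of the propionate shunt (-0.95), oogenesis and the eggshell (-0.47), cytosolic ribosomal proteins (-0.41) and histones (-0.30) had the lowest. With equal library medians and after quantile normalization these medians had the same sign, but that of the ribosomal proteins was -0.04 after quantile normalization. The scaling turned the direction of the lists for body wall muscle, intestine, neuropeptides, *col* collagens, excretory cells, embryonic patterning, yolk, major sperm protein, fasting and the vitamin B12-dependent propionate route, and for these the value relative to all genes is given beside the median.

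**Figure D2:**
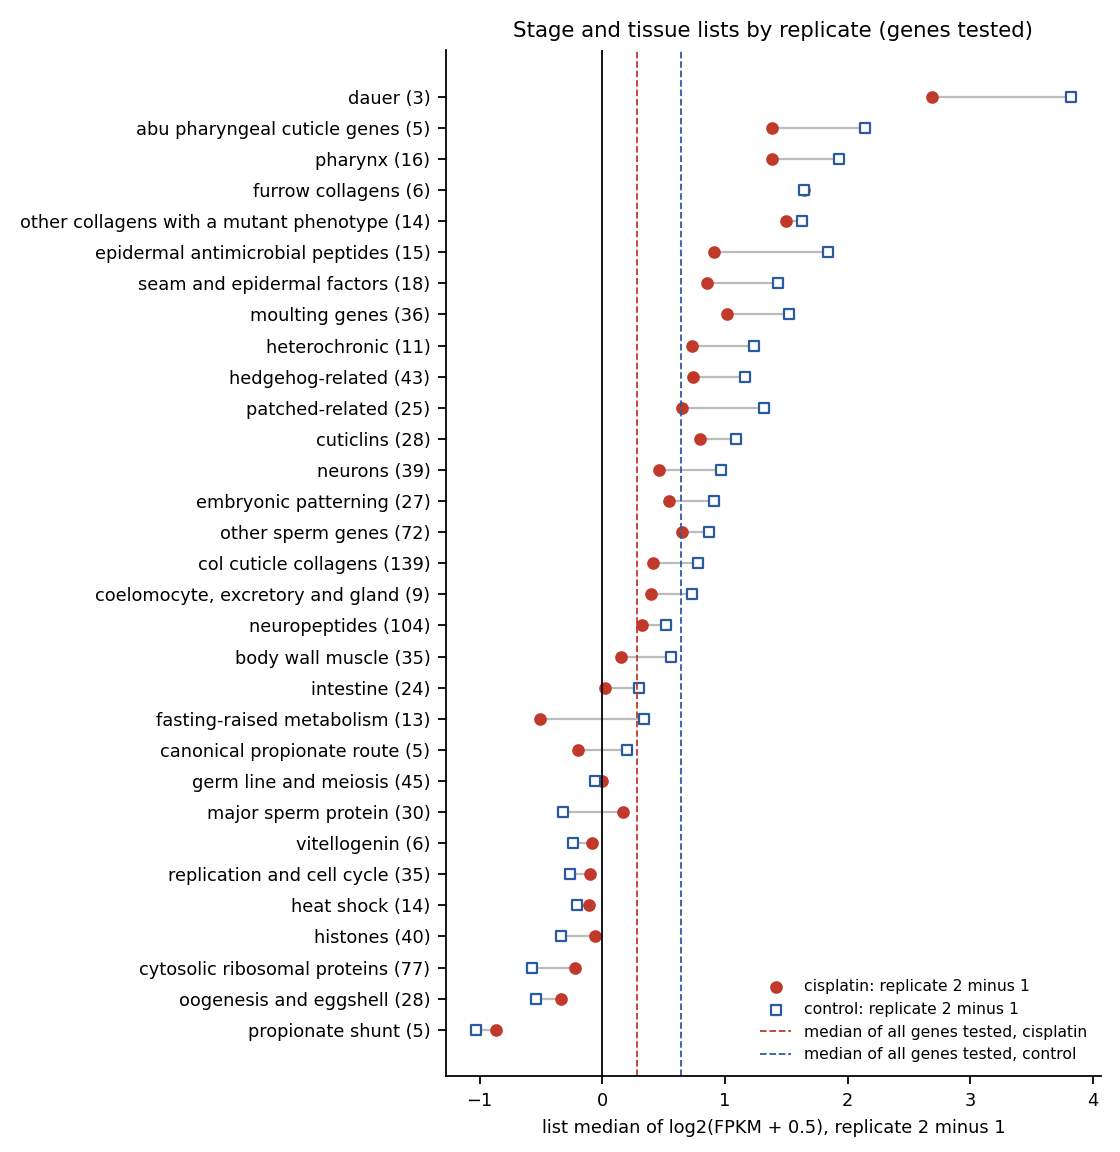
Median log2(FPKM + 0.5) difference, replicate 2 minus replicate 1, of each list within cisplatin (red circles) and within the control (blue squares), with the number of genes tested in brackets. Dashed lines mark the medians of all genes tested, 0.28 and 0.64, and the moulting list lies to the right of them at 1.02 and 1.52 while the oogenesis list lies at -0.34 and -0.54.

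Moulting genes were higher in the libraries numbered 2 in both treatments. Of 36 measured, 27 rose (28.8% of all genes rose) and 1 fell (4.91% of all genes fell), 34 were higher in both treatments, and 18 were higher by at least 1 in both. Their median FPKM was 8.72 and 20.8 in cisplatin replicates 1 and 2 and 6.87 and 22.7 in control replicates 1 and 2. The median difference was 1.24, which is 0.76 above all genes and 0.66 above genes of like length and level. With equal library medians 15 rose and 0 fell, and after quantile normalization 16 and 0.

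The hedgehog-related gene *qua-1*, needed for moulting, had the largest difference of the list. Its FPKM was 4.15 and 30.6 in cisplatin replicates 1 and 2 and 2.25 and 35.4 in the control, a difference of 3.23 ± 0.32 (SE, n = 2 libraries against 2, adjusted p = 1.03e-09 by limma). *mlt-10*, an epidermal gene read at each moult, was at 12.7 and 49.6 FPKM with cisplatin and at 10.9 and 57.1 without. Its libraries numbered 2 lay far above those numbered 1, and the difference was 2.13 ± 0.21 (adjusted p = 5.68e-10, limma).

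The apical extracellular matrix gene *noah-1* was at 17.7 and 54.6 FPKM with cisplatin and 15.8 and 64.6 without, a rise of 1.80. *mlt-11*, which encodes a protease inhibitor of the cuticle, rose by 1.77 and *nas-37*, the astacin protease that helps to shed the old cuticle, rose by 1.18. *lin-42*, the period homologue that cycles with the moults, rose by 1.11, as did the fibrillin gene *fbn-1* by 1.50 and the peroxidase gene *mlt-7* by 0.86. The nuclear receptor gene *nhr-23*, which drives the moulting programme, was at 30.9 and 32.4 FPKM with cisplatin and higher by 0.19 in control replicate 2, at 33.2 FPKM. Its average difference of 0.13 did not pass the test (adjusted p = 0.603, limma) and lay below the median of all genes.

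The steroid dehydrogenase gene *let-767* was the moulting list's only fall, at 298 and 228 FPKM with cisplatin and 365 and 269 without, a difference of -0.41. *osm-11*, which encodes a secreted Notch co-ligand, differed by 0.07 and did not pass. *cpz-1*, a cathepsin Z-like protease gene and the list's most abundant member, rose by 0.42, and with equal library medians its value was -0.25.

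**Figure D3:**
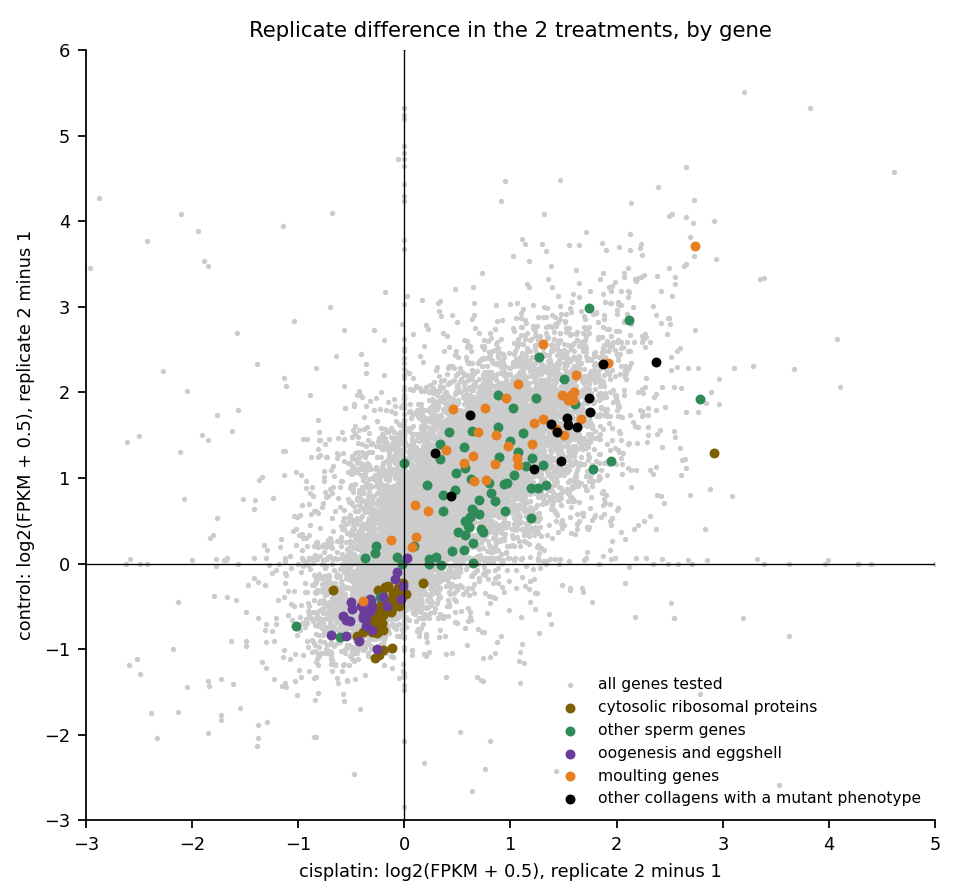
Each grey point is 1 of 15065 genes, with its log2(FPKM + 0.5) difference between replicates 2 and 1 within cisplatin on the horizontal axis and within the control on the vertical axis, and 29 genes lie outside the axes. Moulting genes (orange) and collagens with a mutant phenotype (black) lie to the upper right, oogenesis and eggshell genes (purple) and ribosomal protein genes (brown) to the lower left, and 2440 of all genes lay on opposite sides of 0 in the 2 treatments.

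The 20 cuticle collagens with a mutant phenotype rose throughout. All 6 furrow collagens, which form the circumferential furrows of the cuticle and are made early in each moulting cycle, rose, each by at least 1 in both treatments, and 5 of them passed with equal library medians. Their median difference was 1.61, and 1.54 relative to genes of like length and level. *dpy-7* was at 20.1 and 58.6 FPKM in cisplatin replicates 1 and 2 and at 17.2 and 59.9 in the control, a rise of 1.64 ± 0.19 (SE). *dpy-10* rose by 1.95, *dpy-8* by 1.89, *dpy-9* by 1.55 and *dpy-3* by 1.27. Over these 5 genes the libraries numbered 1 reached at most 23.8 FPKM and those numbered 2 were at least at 43.9 FPKM.

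The 14 other collagens with a mutant body shape, roller or blister phenotype also all rose, 11 of them by at least 1 in both treatments, with a median of 1.54 and of 1.73 relative to genes of like length and level. Of the 14, 6 passed with equal library medians and 12 after quantile normalization, and only 6 had values within their confidence bounds in every library, all of which rose. *lon-3*, a collagen that limits body length, went from 18.1 to 95.1 FPKM in the control and rose by 2.37 with cisplatin, where replicate 2 was at 74.6 FPKM, an average rise of 2.37 ± 0.18. The struts of the adult cuticle need *bli-1* and *bli-2*, and *bli-2* rose by 1.84. *bli-1* rose by 1.87 with cisplatin and by 2.33 without, and was at 11.9 and 44.8 FPKM with cisplatin and at 9.77 and 51.1 without. *rol-6* rose by 1.58 and *sqt-3*, at 189 and 440.1 with cisplatin and 203 and 440.1 without, rose by 1.17. The smallest rises were those of *bli-6* (0.61) and *dpy-17* (0.79), and that of *bli-6* turned to -0.05 with equal library medians.

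The 139 *col* genes, the large family of collagens numbered in order of finding, split by their level. Their median was 0.15 relative to all genes. Of all of them 66 rose and 15 fell, and with equal library medians 26 and 11, with a median of 0.62 that became -0.01. After quantile normalization 41 rose and only 2 fell, with a median of 0.22. Among the 45 with a mean FPKM under 10, 23 rose and 0 fell. Among the 20 with a mean of at least 500 FPKM, 0 rose and 14 fell, and their differences lay between -0.73 and -0.02. The abundance trend over all genes runs the same way, with a median of -0.13 in the most abundant of the 5 groups.

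The adult cuticle collagen *col-19*, switched on at the last moult, was at 1692 and 1015 FPKM in cisplatin replicates 1 and 2 and at 1643 and 1177 in the control. It fell by 0.61 on the log2 scale (SE 0.18, adjusted p = 0.0114, limma). *col-124* was the most abundant, at 3240 and 1728 FPKM with cisplatin and 3030 and 2074 without, and fell by 0.73. *col-179* fell by 0.82, from 548 to 281 FPKM with cisplatin and from 533 to 331 without. *col-7*, also an adult collagen gene, was at 77.0 and 52.9 FPKM with cisplatin and at 70.1 and 72.8 without, and its difference of -0.24 did not pass the test. At the other end *col-36* was at 0.0947 and 7.89 FPKM with cisplatin and at 0.0889 and 23.1 without, and rose by 4.57.

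**Figure D4:**
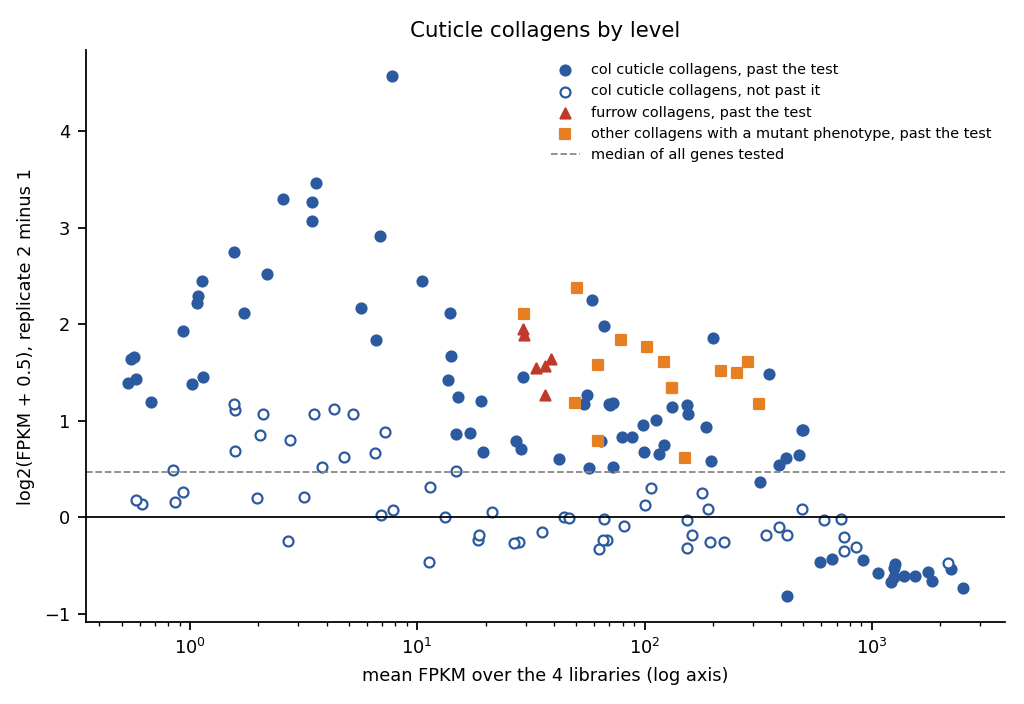
Log2(FPKM + 0.5) difference between replicates 2 and 1 of each cuticle collagen gene against its mean FPKM over the 4 libraries on a log axis, where filled symbols passed limma's test at an adjusted p under 0.05. The 20 furrow and other collagens with a mutant phenotype (red and orange) all lie above 0, while the 20 *col* genes at 500 FPKM or more lie between -0.73 and -0.02.

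The 3 cuticle genes of the dauer list rose from near 0. *cut-1*, a cuticlin gene of the dauer cuticle, was listed at 0 and at 2.73 FPKM with cisplatin and at 0.0655 and 7.49 without. The collagen gene *col-2*, also made for the dauer cuticle, was listed at 0 and at 3.29 with cisplatin and at 0.212 and 10.9 without. *col-40* was at 0.198 and 3.88 and at 0.372 and 9.34. Values of the libraries numbered 1 were at most 0.372 FPKM, where few fragments are behind a value, and the differences of 3.26, 3.46 and 3.07 understate the ratio because of the added 0.5.

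Other gene families of the epidermis and its extracellular matrix had smaller medians. Hedgehog-related genes encode secreted proteins of epidermal and glial matrices in *C. elegans*. Of 43, 24 (55.8%) rose and 0 fell, against 28.8% and 4.91% of all genes. Their median was 0.95, and 0.41 relative to genes of like length and level. With equal library medians 18 rose and 2 fell, and after quantile normalization 11 and 1. *grl-23* was at 0.115 and 3.35 FPKM with cisplatin, listed at 0 in control replicate 1 and at 11.9 in control replicate 2. *grl-20* rose by 2.61, while *grl-32*, listed at 0 in both cisplatin libraries, and *grl-22* differed by -0.71 and -0.61 and did not pass. The most abundant member, *grd-5*, rose by 0.52, and with equal library medians its value was -0.15.

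Patched-related genes encode membrane proteins with a sterol-sensing domain, several of them needed for moulting. Of 25, 11 rose and 0 fell, with a median of 0.93, but of 0.16 relative to genes of like length and level. At equal library medians 8 rose and 1 fell, and after quantile normalization 2 rose. *ptr-4* rose by 1.91 and *ptr-18* by 1.75, while the germline gene *ptc-1* (0.15) and *ptr-2* (-0.25) did not pass. Of 28 cuticlin genes, which encode non-collagen cuticle proteins, 9 rose and 0 fell, near the 28.8% of all genes that rose, and after quantile normalization 2 rose. Their median was 0.93, and 0.01 relative to genes of like length and level. *cut-2*, the most abundant, was at 51.6 and 107 FPKM with cisplatin and 47.1 and 80.9 without and rose by 0.91. *cutl-18* rose by 1.76, and *cut-4* (0.24) and *cutl-29* (-0.19) did not pass.

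Seam cells divide like stem cells in the larval epidermis. Of 18 measured seam and epidermal factors 15 (83.3%) rose, against 28.8% of all genes, and 0 fell. Their median was 1.29, and 0.54 relative to genes of like length and level. With quantile normalization 3 of them passed, and with equal library medians 6. *lin-22*, a repressor of the seam lineage, was at 0.75 and 4.01 FPKM with cisplatin and at 0.704 and 3.74 without, a rise of 1.83. *bro-1*, a partner of the Runx factor, rose by 1.60. *egl-18* (0.52) and *lin-26* (0.03), a GATA factor gene and a zinc finger gene of epidermal fate, did not pass.

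Heterochronic genes set the order of larval stages. Of 11, 8 (72.7%) rose, against 28.8% of all genes, and 0 fell. Their median was 1.11, and 0.33 relative to genes of like length and level. After quantile normalization 1 passed, and with equal library medians 1. *lin-14*, the factor of the first larval stages, was at 14.5 and 23.9 FPKM with cisplatin and at 10.3 and 28.3 without, a rise of 1.06. *lin-29*, which drives the larva-to-adult switch, rose by 1.43 and the nuclear receptor gene *daf-12* rose by 1.29. *lin-28* (-0.13) and *lin-41* (-0.14), which encode RNA-binding proteins of the early and the late larval programme, did not pass, and *lin-41* is also made in oocytes.

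Epidermal antimicrobial peptide genes respond to wounding and to fungal infection of the skin. Of 15, 14 (93.3%, against 28.8% of all genes) rose and 0 fell, with equal library medians 6 and 0. Their median was 1.35, and 1.18 relative to genes of like length and level. Only 2 of the 15 had values within their confidence bounds in every library, of which 1 rose, with a median of 0.48 that lay at -0.07 relative to all genes. *nlp-29* was at 38.5 and 156 FPKM with cisplatin and at 21.6 and 180.2 without, a rise of 2.52 ± 0.17 (adjusted p = 3.31e-14, limma). With 0.5 FPKM added to each, the library numbered 2 was 4.02 times as high as that numbered 1 with cisplatin and 8.18 times in the control. *cnc-2* rose by 2.09 and *nlp-33*, the most abundant, by 1.38. The smallest rises were those of *cnc-8* (0.53) and *nlp-27* (0.38), which became -0.13 and -0.29 with equal library medians.

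Genes of the pharynx, the feeding pump, were among the highest lists. Of 16, 11 (68.8%, against 28.8% of all genes) rose and 0 fell, 10 by at least 1 in both treatments. The list's median was 1.74, and 0.93 relative to genes of like length and level. The pharyngeal myosin gene *myo-2* was at 6.49 and 24.2 FPKM with cisplatin and at 4.01 and 27.9 without, a rise of 2.24 ± 0.31. The other pharyngeal myosin gene *myo-1* rose by 2.26 and the troponin T gene *tnt-4* by 2.35. The troponin I gene *tni-4*, the most abundant of the list, was at 28.5 and 57.5 FPKM with cisplatin and at 21.5 and 72.9 without, a rise of 1.37. *phat-5* and *phat-3*, pharyngeal gland genes, differed by -0.28 and 0.51 and did not pass. All 5 *abu* genes, whose glutamine- and asparagine-rich products line the pharyngeal cuticle, were higher in both treatments, and 3 rose, *abu-13* by 1.86, *abu-12* by 1.93 and *abu-14* by 1.78.

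**Figure D5:**
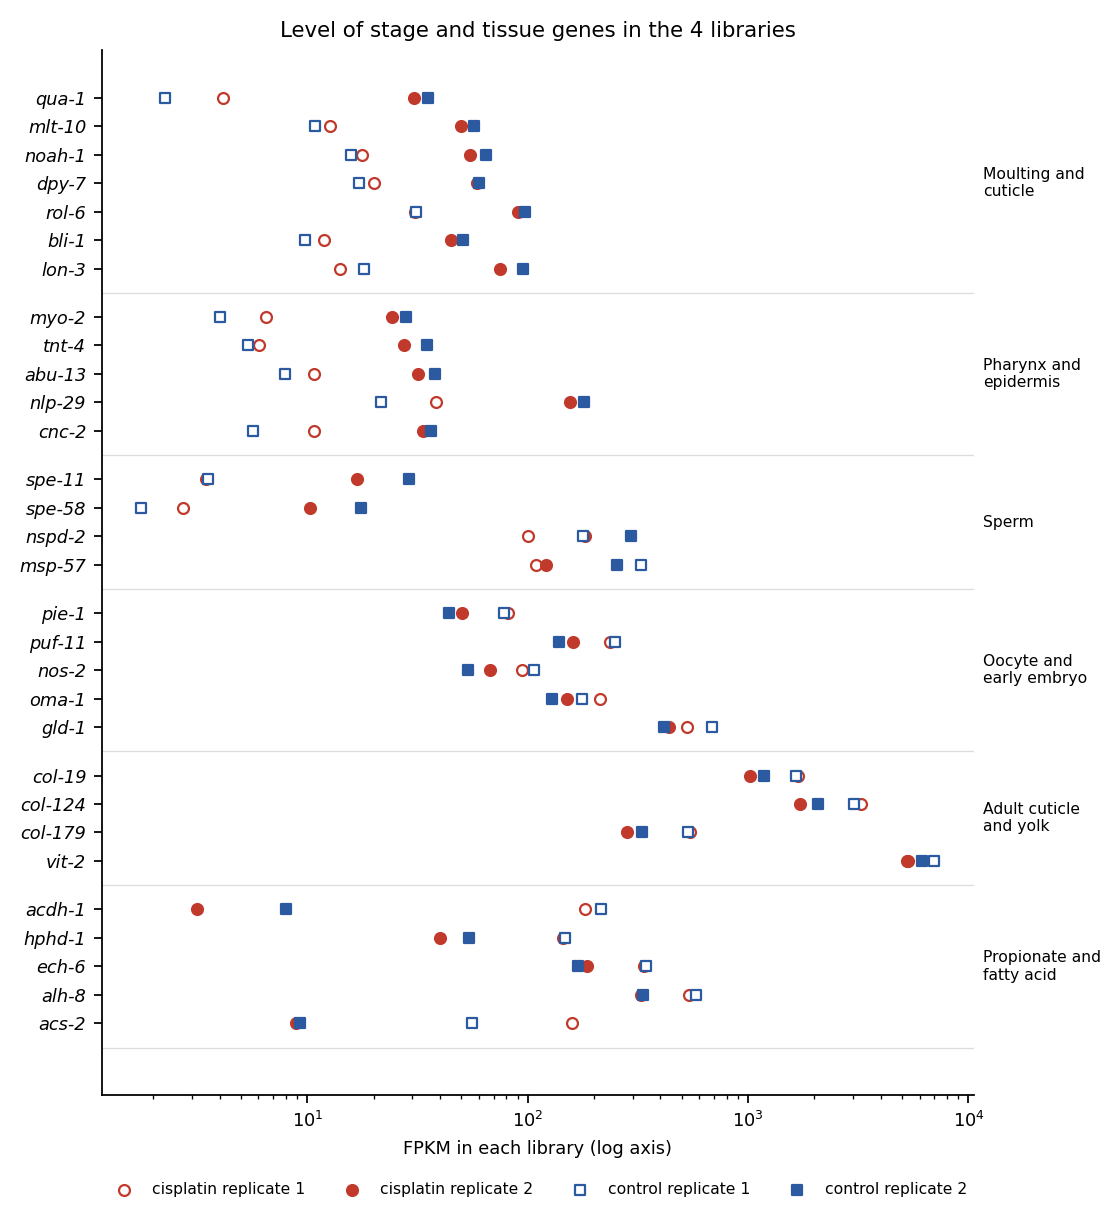
FPKM of 30 genes in each of the 4 libraries on a log axis, with open symbols for replicate 1, filled symbols for replicate 2, red circles for cisplatin and blue squares for the control. Filled symbols lie to the right of open ones for moulting, cuticle, pharynx and epidermal genes in the upper 2 groups, and to the left of them for *oma-1*, *pie-1*, the collagens *col-19*, *col-124* and *col-179*, and *acdh-1*, at 3.16 and 8.03 FPKM in the libraries numbered 2 against 181 and 216 in those numbered 1.

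Sperm genes outside the major sperm protein family were higher in replicate 2. Of 72, 43 (59.7%) rose and 2 (2.78%) fell, against 28.8% and 4.91% of all genes. In both treatments 62 were higher (64.6% of all genes were). The median difference was 0.78, with 0.65 within cisplatin and 0.87 within the control, and 0.45 relative to genes of like length and level. Relative to all genes it was 0.31. In fits without the treatment term this became -0.10 without cisplatin replicate 1 and 0.00 without control replicate 2. Their median FPKM was 12.03 and 15.99 in cisplatin replicates 1 and 2 and 15.1 and 21.5 in control replicates 1 and 2. With equal library medians 10 rose and 5 fell. *spe-11*, which encodes a sperm protein that the embryo needs, was at 3.46 and 16.7 FPKM with cisplatin and at 3.56 and 28.8 without, a rise of 2.49 ± 0.34. *spe-58* rose by 2.37 and *nspd-2*, of a small sperm-enriched family with near-identical copies, rose by 0.79. The sperm receptor gene *spe-9* was at most at 1.34 FPKM and did not pass (1.07, adjusted p = 0.0589). The 2 falls were *ssp-37* (-0.87) and *ssp-19* (-0.73).

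The 30 genes of major sperm protein, the motor protein of nematode sperm, were mixed. Only *msp-71* rose (1.30, at 1.89 and 8.34 FPKM with cisplatin and 9.23 and 15.4 without), and 0 fell, although 2 fell with equal library medians. The list's median was 0.17 within cisplatin and -0.32 within the control. On average it was -0.07. Relative to all genes it was -0.55, but 0.05 after quantile normalization, and it was 0.16 relative to genes of like length and level. *msp-57* was at 109 and 121 FPKM with cisplatin and at 325 and 255 without, and its libraries numbered 1 and 2 overlapped (-0.10, adjusted p = 0.595, limma). *msp-59*, the most abundant, was at 161 and 188 and at 452 and 318. These genes are near-identical copies, and reads with several mapping sites had been removed, so the values of single members are uncertain.

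Oogenesis and eggshell genes were lower in replicate 2 in both treatments. Of 28 measured, 0 rose and 20 fell (4.91% of all genes fell), and 27 were lower in both treatments (18.8% of all genes were). None reached a difference of 1. Their median of -0.47 lay at -0.95 against all genes and at -0.41 against genes of like length and level. With equal library medians 17 fell, and after quantile normalization 1. Their median FPKM was 183 and 142.5 in cisplatin replicates 1 and 2 and 165 and 125 in control replicates 1 and 2. *oma-2* and *cbd-1* were not among the genes tested.

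*pie-1*, the maternal repressor that protects germline fate in the embryo, was at 81.2 and 50.3 FPKM with cisplatin and at 78.2 and 43.9 without. It fell by 0.76 (SE 0.16, adjusted p = 3.98e-04, limma). *puf-11*, a translational repressor of oocytes, fell by 0.69. *cey-2*, a Y-box protein gene and the most abundant of the list, was at 1647 and 1372 and at 2442 and 1221 and fell by 0.63. The oocyte maturation gene *oma-1* was at 212 and 150.1 FPKM with cisplatin and 176 and 128 without and fell by 0.47. The yolk receptor gene *rme-2* (-0.29, adjusted p = 0.0932), the kinase gene *mbk-2* (-0.09) and the Notch receptor gene *glp-1* (0.05) did not pass.

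Germline and meiotic genes as a list did not move one way. Of 45, 6 (13.3%) rose and 7 (15.6%) fell, against 28.8% and 4.91% of all genes, with a median of -0.05. The 7 falls included *nos-2* (-0.73), a maternal Nanos gene, *deps-1* (-0.64), a P granule gene, and *gld-1* (-0.50), the translational repressor of early oogenesis, at 529.9 and 435 FPKM with cisplatin and 684 and 414 without. The synaptonemal complex genes *syp-4* and *syp-1* rose by 0.88 and 0.78. The P granule helicase gene *glh-1* (0.28), the meiotic axis gene *him-3* (0.03) and the abundant helicase gene *cgh-1* (-0.11) did not pass. With equal library medians 0 rose and 10 fell, and after quantile normalization 1 rose and 0 fell.

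The 6 vitellogenin genes, which encode yolk proteins of the adult intestine, passed in neither direction. *vit-2* was at 5334 and 5281 FPKM with cisplatin and at 6994 and 6123 without, *vit-5* at 3779 and 3401 and at 4416 and 3615, and *vit-6* at 3700 and 4344 and at 5627 and 5952. Their differences were -0.10, -0.22 and 0.16, with standard errors of 0.29, 0.25 and 0.27. *vit-3* and *vit-4* differed by -0.27 and -0.31 and *vit-1* by 0.05. The list median of -0.16 (-0.64 relative to all genes) turned to 0.22 (0.25) with quantile normalization, where 1 gene passed as higher.

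Genes of DNA replication and the cell cycle had 1 rise (2.86%) and 8 falls (22.9%) among 35, against 28.8% and 4.91% of all genes. Their median was -0.18, and -0.22 relative to genes of like length and level. The counts were 0 and 16 with equal library medians and 0 and 1 after quantile normalization. The phosphatase gene *cdc-25.1*, active in the germ line and early embryo, was at 124.2 and 81.8 FPKM with cisplatin and at 116 and 64.8 without and fell by 0.72. The centromeric histone gene *hcp-3* fell by 0.61, the ribonucleotide reductase gene *rnr-2* by 0.57 and the replication licensing gene *mcm-5* by 0.39. The cyclin genes *cyb-1* (-0.02) and *cyd-1* (0.57) and the cell cycle inhibitor gene *cki-1* (0.64) did not pass.

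Histone genes had a median of -0.30, and of -0.74 relative to genes of like length and level. Of 40, 7 (17.5%) fell and 2 (5.0%) rose, against 4.91% and 28.8% of all genes. With equal library medians 23 fell and 1 rose. *his-18* was at 7.67 and 4.08 FPKM with cisplatin and at 6.17 and 1.71 without, a fall of 1.21, and *his-6* fell by 1.05. The linker histone gene *his-24* and the variant gene *his-70* rose by 0.87 and 1.32, and the abundant variant gene *his-72* (-0.20) did not pass. Most histone messages lack a poly(A) tail and the libraries were poly(A) selected, and the genes are near-identical copies, so these values are uncertain.

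The 77 cytosolic ribosomal protein genes were lower as a group with few calls. In both treatments 74 were lower in replicate 2 (18.8% of all genes were). Past the test 5 (6.49%) fell and 1 (1.3%) rose, against 4.91% and 28.8% of all genes. Their median difference was -0.41, with -0.22 within cisplatin and -0.57 within the control, and -0.18 relative to genes of like length and level. After quantile normalization the median was -0.04 and 0 passed in either direction. They took 30.2% and 28.1% of the summed FPKM in cisplatin replicates 1 and 2 and 37.2% and 28.8% in control replicates 1 and 2, so control replicate 1 stood apart. *rps-12* was at 4891 and 4026 FPKM with cisplatin and at 6596 and 3067 without and fell by 0.69, and *rplp-2.2* fell by 0.65. *rpl-41.2* (-0.59) and *rps-2* (-0.02) did not pass. The rise was that of *rpl-42*, listed at 0 in cisplatin replicate 1 and at most 4.78 FPKM elsewhere, far below the other ribosomal genes.

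Embryonic patterning genes, which encode mostly transcription factors of early lineages, had a median of 0.81 at a low level, 0.33 relative to all genes and -0.06 relative to genes of like length and level. Of 27, 5 (18.5%) rose and 1 (3.7%) fell, against 28.8% and 4.91% of all genes. A further 13 entries of the list, *end-1* and *end-3* among them, were not among the genes tested. *pal-1*, the maternal Caudal homologue, was at 93.3 and 76.8 FPKM with cisplatin and at 101 and 69.8 without and fell by 0.40. The early embryonic gene *pes-10* was at 0.277 and 1.95 and at 0.13 and 1.18 FPKM and rose by 1.54, and the homeobox gene *ceh-27* rose by 2.24. *unc-130* (1.13) and *tbx-9* (-0.54) did not pass.

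Body wall muscle genes had 14 rises and 0 falls among 35, with a median of 0.35 that lay at -0.12 relative to all genes as deposited but at 0.25 after quantile normalization. Its 17 members with longer exons had a median of 0.71 and its 18 shorter ones a median of 0.04. The longer and shorter members differed in level too, with a median FPKM of 29.4 and 209.7, and relative to genes of like length and level their medians were 0.37 and 0.12. The giant kinase gene *unc-22* was at 4.42 and 15.5 FPKM with cisplatin and at 1.89 and 16.8 without and rose by 2.28. The troponin T gene *tnt-3* rose by 1.51, and the myosin genes *unc-54* and *myo-3* rose by 0.68 and 0.88. *unc-54* was at 283 and 403 FPKM with cisplatin and at 244 and 442 without. The abundant genes *mlc-2* (-0.45), *clik-1* (-0.29) and *pat-10* (-0.23), which encode a myosin light chain, a calponin-like protein and troponin C, did not pass.

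Neuronal genes had 16 rises (41.0%) and 1 fall (2.56%) among 39, against 28.8% and 4.91% of all genes. Their median was 0.81, and 0.14 relative to genes of like length and level. With equal library medians 4 rose and 2 fell, and after quantile normalization 2 and 0. The synaptic vesicle genes *snt-1* (synaptotagmin) and *rab-3* rose by 1.25 and 0.87, the kinesin gene *unc-104* by 1.81 and the active zone gene *unc-10* by 1.86. *snt-1* was at 6.37 and 12.1 FPKM with cisplatin and at 4.41 and 14.7 without. The fall was *tdc-1* (-0.62), the tyrosine decarboxylase of tyramine and octopamine synthesis, also made in the gonadal sheath. *snb-1* (-0.12) and *unc-76* (-0.20) did not pass. Of the 10 male neuron genes listed, 1 was measured, *cwp-4*, which was at most at 1.42 FPKM. It rose by 1.34 (adjusted p = 0.0188, limma) but did not pass with equal library medians or after quantile normalization. With a single gene at a low level these data do not bear on males.

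Among neuropeptide genes 33 (31.7% of those measured) rose and 4 (3.85%) fell, near the 28.8% and 4.91% of all genes. Their median was 0.38, -0.10 relative to all genes and 0.03 relative to genes of like length and level. *nlp-30* rose by 2.07, and like *nlp-29* it lies among the epidermal antimicrobial peptides. *nlp-12*, a cholecystokinin-like gene, was at 60.0 and 34.02 FPKM with cisplatin and 71.2 and 33.2 without and fell by 0.95, *nlp-89* fell by 1.14 and *nlp-36*, an abundant member, by 0.44. With equal library medians 8 rose and 17 fell.

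The intestinal list had a median of 0.20, which was -0.27 against all genes, 0.01 against them after quantile normalization, and -0.11 relative to genes of like length and level. Of 24, 6 rose, a smaller share than the 28.8% of all genes, and 0 fell (4.91% of all genes fell). With equal library medians 1 rose and 2 fell, and after quantile normalization 1 and 1. *ftn-1*, the intestinal ferritin, was at 2.53 and 16.51 FPKM with cisplatin and at 3.74 and 30.6 without and rose by 2.68 ± 0.35. The GATA factor gene *elt-2* rose by 1.01 and the glucosylceramidase-like gene *gba-3* by 1.16. The esterase gene *ges-1* (0.13), the protease gene *asp-1* (-0.45), at 2206 and 1732 and at 1792 and 1225 FPKM, and *ifd-2* (-0.54), which encodes an intestinal intermediate filament, did not pass. Among 9 genes of coelomocytes, the excretory system and glands (median 0.60, 0.12 relative to all genes), 3 (33.3%) rose, near the share of all genes. *exc-5* rose by 1.57, and *cup-4* (0.97), *clh-3* (0.10) and *vha-8* (-0.04) did not pass.

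Of 14 heat shock genes 2 (14.3%) rose and 2 (14.3%) fell, against 28.8% and 4.91% of all genes. The small heat shock genes *hsp-16.41* and *hsp-16.2* fell by 0.92 and 0.85. *hsp-16.41* was at 126 and 79.8 FPKM with cisplatin and at 90.2 and 39.6 without. The mitochondrial chaperone genes *hsp-60* and *hsp-6* rose by 0.46 and 0.39, but their values were -0.20 and -0.27 with equal library medians. *hsp-90*, the most abundant, differed by -0.23 and did not pass.

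Among genes above 0 FPKM in every library and named by size, the largest fall was that of *acdh-1* (chromosome I, 6497436 to 6499560, WBcel235), the acyl-CoA dehydrogenase that opens the propionate shunt, a route that breaks down propionate when vitamin B12 is short. It was at 181 and 3.16 FPKM in cisplatin replicates 1 and 2 and at 216 and 8.03 in control replicates 1 and 2. It fell by 5.15 on the log2 scale (SE 0.20, adjusted p = 3.99e-22, limma). All 5 shunt genes fell, a list chosen after these values were seen and hence no more than a description. *hphd-1*, which oxidizes 3-hydroxypropionate, was at 144 and 39.8 FPKM with cisplatin and at 147 and 54.2 without and fell by 1.64. The enoyl-CoA hydratase gene *ech-6* fell by 0.95, the semialdehyde dehydrogenase gene *alh-8* by 0.75 and the hydrolase gene *hach-1* by 0.36.

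None of 5 measured genes of the vitamin B12-dependent route passed in either direction, a list also chosen after the values were seen. Their median was -0.01. Relative to all genes it was -0.48, but 0.13 after quantile normalization. *mmcm-1*, the mutase of this route, was at 69.4 and 69.1 FPKM with cisplatin and at 53.3 and 72.2 without, and differed by 0.21. *pccb-1* (-0.01), *mce-1* (0.05), *mmaa-1* (-0.11) and *mmab-1* (-0.23) lay on either side of 0. The folate transporter gene *folt-2* was at 60.4 and 16.44 FPKM with cisplatin and 86.1 and 21.5 without and fell by 1.91.

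Genes raised by fasting split, with a median of 0.03, which was -0.44 relative to all genes. Within cisplatin the median was -0.51 and within the control 0.34. *acs-2*, the acyl-CoA synthetase of mitochondrial fat oxidation, was at 159 and 8.89 FPKM with cisplatin and at 56.1 and 9.26 without and fell by 3.31 ± 0.23. *hacd-1*, of the same oxidation, fell by 1.01. The lysosomal lipase genes *lipl-1* and *lipl-2* rose by 2.30 and 1.73. The glyoxylate gene *icl-1* was at 657 and 459 with cisplatin and 306 and 456 without, so its difference had opposite signs in the 2 treatments. Of the 13 genes 2 (15.4%) rose and 4 (30.8%) fell, against 28.8% and 4.91% of all genes.

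The 12 largest rises at a mean of at least 5 FPKM were mostly of genes without an assigned name. Beside *col-36* and *qua-1* they were *Y82E9BR.6*, *F25D1.11*, *F45D11.4*, *K07B1.8*, *F45D11.14*, *drd-10*, *K02E7.6*, *F48C1.9*, *F17B5.1* and *Y54G11A.14*. *F45D11.14* was at 139 and 734 FPKM in cisplatin replicates 1 and 2 and at 46.4 and 987 in control replicates 1 and 2, a rise of 3.39 ± 0.21. *F45D11.4* (4.36) and *K02E7.6* (3.35), both annotated as pseudogenes, lie on the same arm of chromosome II as *F45D11.14*, all between 1004616 and 1059280. Whether reads were split among like sequences there was not tested. *K07B1.8* was at 14.7 and 101 and at 6.19 and 127 FPKM, a rise of 3.49. *Y82E9BR.6* was listed at 0 in both libraries numbered 1 and was at 43.8 and 71.3 FPKM in those numbered 2.

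The 12 largest falls held, beside *acdh-1*, *acs-2* and *folt-2*, several short RNAs at 0 in single libraries. The non-coding *C05D9.12*, with 129 bases of exon, was at 212 and 269.6 FPKM in the libraries numbered 1 and listed at 0 in those numbered 2. *nspa-1*, with 105 bases, was at 2451 and 567 FPKM with cisplatin and at 4174 and listed at 0 without. The small nucleolar RNAs *Y65B4A.11* and *Y55F3BL.5*, each listed at 0 only in cisplatin replicate 2, and the protein-coding *Y50D4B.1*, listed at 0 only in control replicate 2, rest on 1 library each. For genes listed at 0 no ratio is given. The non-coding *C36C9.10* was at 493 and 85.3 and at 404.5 and 187 FPKM and fell by 1.82. The remaining 3 were the neighbours *F18E3.11*, *F18E3.12* and *F18E3.13* on chromosome V between 7413482 and 7416433, which fell by 1.93, 1.89 and 2.07. *F18E3.11* was at 39.4 and 8.64 FPKM with cisplatin and at 19.7 and 5.59 without.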

How the data were processed

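RNA was poly(A) selected and sequenced by the authors from 4 mixed-stage populations, 2 exposed to cisplatin and 2 untreated. The dose was taken from the treatment field (60 µg/ml), since the growth text of every sample says 0 µg/ml. Reads were aligned with TopHat to WBcel235, and Cufflinks and Cuffdiff made the table, per the submitters' processing notes, which give no versions. The FPKM values deposited by the authors, with their confidence bounds, are not counts, so the fragments behind a value are unknown. Condition means and the comparison of treatments (fold changes and p-values) were not used, and 0 columns of single libraries were left over.

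Genes with a mean under 0.5 FPKM or a failed estimate (88 genes, 114 values) were left out, 343 in all. The log2(FPKM + 0.5) values went into limma 3.58.1 (R 4.3.3) with treatment as a covariate and a variance trend on intensity, on 1 residual degree of freedom and a prior of 38.2 degrees of freedom, with p-values adjusted by Benjamini-Hochberg. An exact permutation test of 2 libraries against 2 cannot pass 0.05, so none was made. The fit was tried on simulated data with 15065 genes of which 200 were changed. It recovered between 1% and 35% of changes of 1 on the log2 scale and between 32% and 93% of changes of 2. Of its calls on these simulated data, between 2.78% and 29% were false. The simulated noise was independent between genes and held no shift of a whole library. These shares therefore do not give the error of the calls on the real libraries. RefSeq names and coordinates (WBcel235) were matched to 15230 IDs, and 98.9% of genes tested had an exon length from the Ensembl annotation.

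Gene lists were drawn up from textbook worm biology, and members and lists were chosen with earlier results of these data known. Named genes were, per direction, the 12 largest differences with the same sign in both treatments, past the test and at a mean of at least 5 FPKM, in each list the 2 highest, the 2 lowest (mean of at least 2 FPKM) and the most abundant member, and landmark genes of stages. Lists of the propionate routes, genes of like length and level, and genes within their bounds were added after seeing the data. Between 89.4% and 90.4% of FPKM values lay within their own confidence bounds.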

Additional observations from a re-analysis of the deposited data

Results flagged for a closer look

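A few results differed in direction between the 2 treatments. They were marked because the difference between replicates 2 and 1 was at least 0.15 on the log2 scale in both treatments with opposite signs, and the difference between the treatments was not tested, since no residual degree of freedom is left for it. The median of major sperm protein genes was 0.17 within cisplatin and -0.32 within the control, a step of -0.49 from cisplatin to control, and its member *msp-59* went from 0.22 to -0.51 (-0.73). The fasting list went from -0.51 to 0.34 (0.85) and its member *icl-1* from -0.51 to 0.57 (1.09). For the vitamin B12-dependent propionate route the medians were -0.20 and 0.20 (0.40), for *mce-1* -0.23 and 0.32 (0.55) and for *pccb-1* -0.21 and 0.20 (0.41). The chloride channel gene *clh-3* stood at -0.28 and 0.47 (0.75) and *rps-2* at 0.18 and -0.23 (-0.41). Relative to the median of all genes in the same treatment, 0.28 and 0.64, each of these values was negative in both treatments. After quantile normalization the averages over both treatments relative to all genes were 0.05 for major sperm protein and 0.13 for the vitamin B12-dependent route.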

How the results depend on the processing

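No paired analysis was possible because the replicate number, which would pair the libraries, is itself what was compared, and treatment was the covariate. Higher and lower genes numbered 4337 and 740 as reported, and 2667 and 420 with failed estimates kept at 0, 697 and 419 after quantile normalization, 1955 and 2096 with each library at the same median, 0 and 1 without the intensity trend (5494 and 275 at an unadjusted p under 0.05, limma) and 1709 and 167 without the treatment term. Lower genes numbered 484 among genes within their confidence bounds in every library. Leaving out 1 library gave 0 to 2367 higher and 0 to 126 lower genes. Those fits drop the treatment term and keep 1 residual degree of freedom, so that the lone library is assumed to vary like the others.

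The median of moulting genes was 0.66 after quantile normalization, 0.67 at equal medians and 0.66 relative to genes of like length and level, and 1.05 to 1.49 without 1 library. That of oogenesis and eggshell genes was -1.14 at equal medians and -0.59 to -0.36 without 1 library. Relative to all genes, embryonic patterning was at -0.01 after quantile normalization and -0.06 against genes of like length and level, in place of 0.33. Body wall muscle was at 0.25 and 0.23 in place of -0.12, major sperm protein at 0.05 and 0.16 in place of -0.55, and the vitamin B12-dependent propionate route at 0.13 and 0.07 in place of -0.48. After quantile normalization yolk genes were at 0.25 in place of -0.64 and intestinal genes at 0.01 in place of -0.27. With equal medians *cpz-1* was at -0.25, *bli-6* at -0.05, *grd-5* at -0.15, *nlp-27* at -0.29, *cnc-8* at -0.13, *hsp-6* at -0.27 and *hsp-60* at -0.20. *Y50D4B.1* was between -5.19 and 0.47 without 1 library in place of -2.36, and at 0.47 without control replicate 2.

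Of 137 named genes past the test, 51 missed it after quantile normalization, 31 at equal medians and 44 without the treatment term. With failed estimates kept 24 missed it, and under another pseudocount or filter at most 2. Counts in this paragraph leave out genes whose sign turned, 7 at equal medians. Named genes were not counted without the intensity trend, where of all genes tested only 0 passed as higher and 1 as lower. Without control replicate 1 all 137 missed it, without either library numbered 2 129 each, and without cisplatin replicate 1 60. The cause of these shifts was not tested. Fragments behind each value are unknown, so low values carry an error that these tables do not give.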

Other observations

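Gene classes outside the lists above were also compared by their shared name, among classes with at least 20 genes tested. These classes were looked at with the values known and are given as descriptions. The insulin-like peptide genes (*ins*), which act on the insulin/IGF receptor, had 15 rises and 1 fall among 26, with a median of 1.25 and of 0.43 relative to genes of like length and level. *ins-35* was at 1.28 and 8.13 FPKM in cisplatin replicates 1 and 2 and at 1.20 and 10.2 in the control, a rise of 2.46. The fall was *ins-19*, at 23.6 and 10.7 and at 43.8 and 15.9 FPKM (-1.27). Neprilysin-like (*nep*) and astacin-like (*nas*) metalloprotease genes had medians of 1.11 and 1.08, with 13 rises and 0 falls each among 21 and 26, and of 0.18 and 0.15 relative to genes of like length and level. Transthyretin-like genes (*ttr*) had 24 rises and 2 falls among 51, with a median of 0.47, the same as that of all genes. Relative to genes of like length and level their median was 0.46.

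C-type lectin genes (*clec*), many of them expressed in the intestine, split, with 22 rises and 17 falls among 109. Of all genes 28.8% rose and 4.91% fell. The class had a median of 0.45, and of -0.29 relative to genes of like length and level. *clec-180* was at 2.65 and 17.9 FPKM with cisplatin and at 1.73 and 22.2 without, a rise of 2.95. *clec-4* was at 26.2 and 9.79 and at 31.8 and 8.20 FPKM and fell by 1.63. By chromosome, the median difference of all genes tested ran from 0.33 on III and 0.37 on I to 0.56 on V and 0.65 on X.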
